A study of Mus musculus with 31 samples.

Results

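The 54 genes described here drive or mark cell division, and they were followed in mammary glands of mice that carry between 0 and 4 functional alleles of Stat5a and Stat5b. They were taken by gene symbol from a given list, and all 54 stood in both deposited tables, which hold 22609 gene symbols each. By role they comprise 8 cyclins and kinases of G1 and of entry into S phase, 18 genes of S phase, 21 genes of mitosis, 4 transcription factors and 3 inhibitors of cyclin-dependent kinases (CDKs). No measured value entered the choice of the genes, although the list was drawn up with earlier results of these tables known.

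RNA of whole mammary tissue, with the lymph nodes left out, was sequenced at day 6 of pregnancy and at parturition, within 12 hours of delivery. All mice had the mixed strain 129SV::FVB/N::C57BL/6, and their age is not given in the sources used here. The 6 genotypes are named by the alleles left. Null mice were Stat5abfl/fl;MMTV-Cre, in which a mammary tumour virus promoter (transgenic line A) drives Cre, so that both genes are lost in mammary epithelium and kept in cells without Cre. B mice carried a deletion of the whole Stat5ab locus over a Stat5a- chromosome, which leaves 1 Stat5b allele, and A mice carried the same deletion over Stat5b-, which leaves 1 Stat5a allele. BB mice were Stat5a-/- with 2 Stat5b alleles, AB mice were Stat5ab+/null with 1 allele of each gene, and AABB were the controls with 4 alleles, a name that the study uses for wild type and for Stat5abfl/fl mice without Cre. The B, A, BB and AB losses were in the germline and so concern every cell of the gland. In all, 31 samples are listed, with 3 of each genotype at day 6 (18) and 13 at parturition, of which 3 are B and every other genotype has 2, while the protocol speaks of 2 mice per genotype.

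A cell that commits to division first makes D-type cyclins, which with CDK4 and CDK6 inactivate the retinoblastoma brake and free the E2F factors. E2F factors then switch on the genes that load the MCM helicase onto DNA and that make nucleotides, and later the MuvB complex with B-MYB and FOXM1 switches on the genes of mitosis. In the mammary gland the epithelium divides in early and middle pregnancy and turns to milk secretion around birth, and STAT5, which prolactin activates, is needed for both the growth of the alveoli and the secretion.

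The start regions of these genes carry the marks of that sequence of events, and 5 of them are shown because the results below turn on the genes they belong to. RefSeq promoters (build GRCm38.p6, 250 bases before to 50 bases after each start, 300 bases in all) were at hand for 44 of the 54 genes, as 49 promoters. Ccnd1, Ccnd2, Ccne2, Gmnn, Mcm4, Ccna2, Aurkb, Kif20a, Tpx2 and Foxm1 had no entry. Capitals mark 4 kinds of letters, searched on both strands: E2F-type letters (TTTCCCGC, TTTGGCGC, TTTCGCGC or TTTGCCGC, which may overlap each other), the CCAAT box (CCAAT), the cell cycle homology region or CHR (TTTGAA or TTCGAA) and the STAT5-type letters TTCNNNGAA. Each stretch is given 5′ to 3′ on the strand of its gene and ends before the start site.
Mcm6, minus strand, chr1:128359736-128359825: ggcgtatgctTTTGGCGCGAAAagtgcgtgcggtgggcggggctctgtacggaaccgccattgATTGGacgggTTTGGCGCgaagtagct
Mcm5, plus strand, chr8:75109264-75109443: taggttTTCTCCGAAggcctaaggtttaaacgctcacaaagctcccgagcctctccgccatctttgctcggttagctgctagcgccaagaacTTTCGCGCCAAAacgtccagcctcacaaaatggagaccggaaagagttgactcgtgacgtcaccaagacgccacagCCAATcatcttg
Cdk1, minus strand, chr10:69352913-69353052: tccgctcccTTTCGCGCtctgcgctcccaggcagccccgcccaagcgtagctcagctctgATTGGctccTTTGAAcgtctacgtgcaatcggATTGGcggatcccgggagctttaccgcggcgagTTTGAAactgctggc
Ube2c, plus strand, chr2:164769834-164769918: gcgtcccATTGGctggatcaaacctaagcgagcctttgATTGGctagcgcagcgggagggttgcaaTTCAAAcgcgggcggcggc
Mki67, minus strand, chr7:135716465-135716574: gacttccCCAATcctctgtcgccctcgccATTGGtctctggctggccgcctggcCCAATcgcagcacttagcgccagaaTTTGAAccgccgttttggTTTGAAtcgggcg

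The Mcm6 and Mcm5 stretches hold E2F-type letters as overlapping pairs beside a CCAAT box, whereas Ube2c and Mki67 hold CCAAT boxes followed by a CHR, and Cdk1 holds all of these. The same division ran through the 2 large groups. E2F-type letters stood in 7 of 17 S phase promoters (41.2%) and in 1 of 17 mitosis promoters (5.88%), that of Cdk1, beside 2.26% of all 32851 promoters in the table. A CHR stood in 13 of 17 mitosis promoters (76.5%) and in 3 of 17 S phase promoters (17.6%), beside 19.2% of all. CCAAT boxes were frequent in both groups, at 76.5% of S phase and 88.2% of mitosis promoters beside 37.4% of all. STAT5-type letters occurred in 2 of 17 S phase promoters, those of Mcm5 and Cdc45, and in no mitosis promoter of 17, beside 8.30% of all promoters. These matches describe letters in a window of 300 bases and are not evidence of binding.

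Each table holds FPKM (fragments mapped to a gene, set relative to transcript length and to the library's mapped fragments) with 1 column per genotype, the authors' mean over its samples, so no value below has a replicate error and no difference has a test. Sequencing depth is unknown. Columns were scaled within a stage by the median ratio over all genes, with factors of 0.916 to 1.07 at day 6 and 0.794 to 1.13 at parturition, and differences are log2 ratios of scaled FPKM + 1. A gene is counted as lower or higher when this ratio is at least 2-fold. At least 1 FPKM in 2 of the 6 columns was reached by 13367 genes at day 6, among them 53 of the 54 members, and by 13061 genes at parturition, among them 50; Ccne2 fell short at both stages and Bub1, Cenpe and Cenpf at parturition, and all 4 are kept in the medians. As a check of the labels, Stat5a read 13.6, 12.5, 15.9, 3.67, 13.4 and 33.6 scaled FPKM in Null, B, A, BB, AB and AABB at day 6 and 6.96, 8.60, 16.5, 4.30, 22.9 and 70.8 at parturition. BB was the lowest at both stages, but the column labelled B, which by its genotype also has no functional Stat5a allele, was above BB at both and close to A and AB at day 6. Stat5b read 10.6 and 10.3 in the column labelled A, which has no functional Stat5b allele, and 11.7 and 11.2 in AB, which has 1. The Stat5a level thus went against the label B and the Stat5b level did not set A apart from AB, and whether the mutated alleles still give counted RNA is not given in the sources used here, so B and A below mean the columns labelled so. All 8 markers of luminal epithelium (such as Krt8 and Epcam) were above 0.1 FPKM in every column, but they did not move together. Their log2 ratios of Null to AABB ran from -1.22 (Epcam) to 0.85 (Krt7) at day 6. At parturition they ran from -2.21 (Cldn7) to 2.65 (Krt7) in Null and from -1.44 (Cldn7) to 2.48 (Krt7) in B. Because tissue was bulk, fewer dividing cells and less RNA per cell cannot be told apart in any of the values. An alternative scaling to the 8 luminal markers moves the median of all genes by 0.26 to 0.92 at day 6 and by up to -0.69 at parturition, so a direction that it turns is given with both values.

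At day 6 of pregnancy the genes of both phases were lower in Null than in AABB glands almost without exception. All 18 S phase genes and all 21 mitosis genes had negative ratios, with a median of -0.75 for S phase and -0.997 for mitosis (-1 being 2-fold lower), and with scaling to luminal markers the medians were -0.44 and -0.68, with 17 of 18 and 21 of 21 negative. Of the 54 members, 10 were at least 2-fold lower in Null, where 2.09% of all genes tested were, and 0 were at least 2-fold higher, where 2.21% were. With scaling to luminal markers 1 member was lower and 2 were higher (1.01% and 4.12% of all genes), and with 0.1 in place of 1 as the added constant 25 were lower (3.64% of all genes). Of the 10, 9 belong to mitosis and the other is the transcription factor gene E2f2.

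Ccna2, the cyclin that carries cells through S phase and into mitosis, read 3.89, 6.23, 6.52, 8.36, 8.29 and 10.7 scaled FPKM in Null, B, A, BB, AB and AABB. Cdk1, the kinase that triggers mitosis, read 4.65, 5.26, 5.81, 6.34, 6.82 and 12.4 in the same order. Both genes were lowest in Null, with log2 ratios of -1.26 and -1.25, and highest in AABB, although with luminal scaling Ccna2 in B, A, BB and AB and Cdk1 in AB are above AABB. Top2a, the topoisomerase that untangles replicated chromosomes, read 5.67 in Null and between 11.4 and 13.6 in the other 5 columns, so that Null alone stood low. Among the replication genes, Mcm6, a subunit of the helicase that opens the double strand, read 14.7 in Null and 19.4 to 27.7 elsewhere. Pcna, the sliding clamp of the polymerases and the most abundant S phase member, read 65.9 in Null and 71.0 to 89.4 elsewhere. Its log2 ratio of -0.43 was among the smallest of the S phase genes, and only Cdc45 at -0.23 and Pola1 at -0.30 were closer to 0.

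In the main scaling the medians of the 4 intermediate genotypes at day 6 were closer to 0 than in Null. Their direction depended on the scaling, and with luminal scaling the S phase medians of A and AB were further from 0 than that of Null. For S phase the median ratios to AABB were -0.42 in B, -0.33 in A, -0.29 in BB and -0.29 in AB, and with scaling to luminal markers they were 0.27, 0.45, 0.20 and 0.73. For mitosis they were -0.50, -0.48, -0.32 and -0.40, against 0.21, 0.35, 0.17 and 0.54 with luminal scaling. The summed luminal markers were 1296, 1151, 1248 and 833 FPKM in B, A, BB and AB and 1751 in AABB, with 1533 in Null, and their part in these ratios was not tested. Members at least 2-fold lower numbered 10 in B (5.18% of all genes), 9 in A (5.54%), 4 in BB (3.6%) and 2 in AB (5.01%). Members at least 2-fold higher numbered 1 in B (7.56% of all genes), 1 in A (7.01%), 0 in BB (5.12%) and 2 in AB (6.78%). On the low side the share of members was above that of all genes in B, A and BB and below it in AB. With luminal scaling the lower members numbered 0 in B, 1 in A, 1 in BB and 0 in AB, beside 0.92%, 0.598%, 1.19% and 0.943% of all genes. The share of members was then below that of all genes in B and AB. In A and BB it was 1.85%, above that of all genes but resting on 1 member each.

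**Figure D1:**
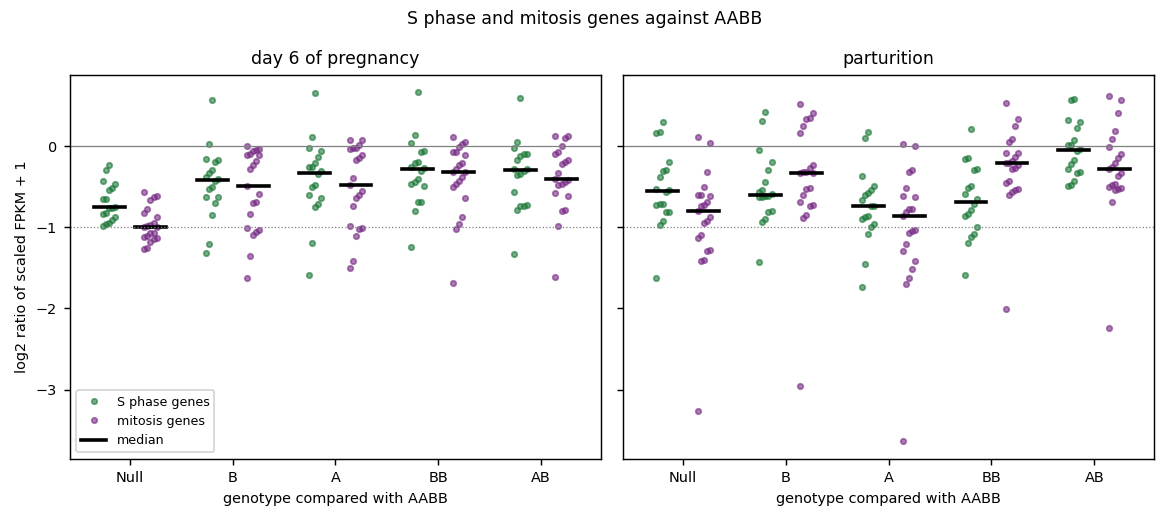
Log2 ratio to AABB of scaled FPKM + 1 (y axis) for 18 S phase genes (green) and 21 mitosis genes (purple) in 5 genotypes (x axis), at day 6 of pregnancy (left) and at parturition (right); each point is 1 gene, the bar is the group's median and the dotted line is 2-fold lower. At day 6 every Null point lies below 0, with medians of -0.75 and -0.997, while the negative medians of B, A, BB and AB become positive when columns are scaled to luminal markers.

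A small set of members departed from that mild pattern in B and A glands. Ube2c, the enzyme with which the anaphase-promoting complex tags cyclins for destruction, read 12.0, 7.45, 8.18, 12.4, 13.9 and 25.0 scaled FPKM from Null to AABB, so B and A lay below Null. Plk1, a kinase of mitotic entry and spindle assembly, read 3.56, 2.28, 2.14, 5.42, 5.02 and 7.39 and was likewise lowest in B and A. Cdt1, which loads the MCM helicase at origins, read 5.23, 3.45, 2.68, 7.02, 5.42 and 10.1 and followed the same order. These 3 genes were lower in B and in A than in Null, BB and AB, but with luminal scaling Ube2c in A (-0.57) is above Null (-0.68), and all 3 are above AABB in AB. Gmnn, whose product geminin holds Cdt1 in check, read 19.7 in AABB and only 7.28 to 9.75 in the other 5 columns. It was the S phase gene furthest from AABB in BB (-1.25) and AB (-1.33), the direction being the same under luminal scaling.

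Pola1, the catalytic subunit of the polymerase that starts each new strand, went the other way. It read 2.02 in Null and 2.71 in AABB but 4.51, 4.83, 4.90 and 4.61 in B, A, BB and AB, with log2 ratios of 0.57 to 0.67. Its partner Prim1, the primase, read 5.23 in Null, 6.03 to 8.79 in those 4 genotypes and 10.7 in AABB. Within the same complex the catalytic subunit was therefore above AABB, and the primase below it, in the 4 intermediate columns, although with luminal scaling Prim1 too is above AABB there.

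The day 6 differences of B and A also followed transcript length and base composition. Across the 54 members, the ratio of B to AABB had a Spearman rho of 0.45 with transcript length and of -0.57 with GC content, and that of A had 0.47 and -0.60. Over all genes with a known length the same correlations were 0.36 and -0.48 for B and 0.33 and -0.54 for A, all points being ratios of the same pairs of columns. In Null the members' correlations were 0.02 with length and -0.03 with GC content. Removing both trends left the mitosis medians of B and A at -0.62 and -0.64, and the number of members at least 2-fold lower at 6 in B and 7 in A. B and A glands at day 6 also carried B cell markers, whose sum over 6 genes was 169 and 148 FPKM there and 3.62 to 15.5 in the other 4 columns, with all 6 above 0.1 FPKM in each column. The part of these lymphocyte transcripts in the ratios was not tested.

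Counting alleles as 0, 1, 2 and 4, with the mean of B and A and the mean of BB and AB as the middle steps, 23 of the 54 members were higher at each step at day 6, where 2.5% of all genes did. With luminal scaling this held for 2 members, Cdk1 and E2f2 (0.628% of all genes), and without scaling for 14. In the main scaling they include 8 of 18 S phase and 11 of 21 mitosis genes, among them Pcna, Mcm3, Ccna2 and Cdc20. None of the 54 was lower at each step, where 1.92% of all genes did. AABB was the highest of the 6 columns for 35 members, where it was for 24.9% of all genes, but with luminal scaling for 2 members and 1.86% of all genes.

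**Figure D2:**
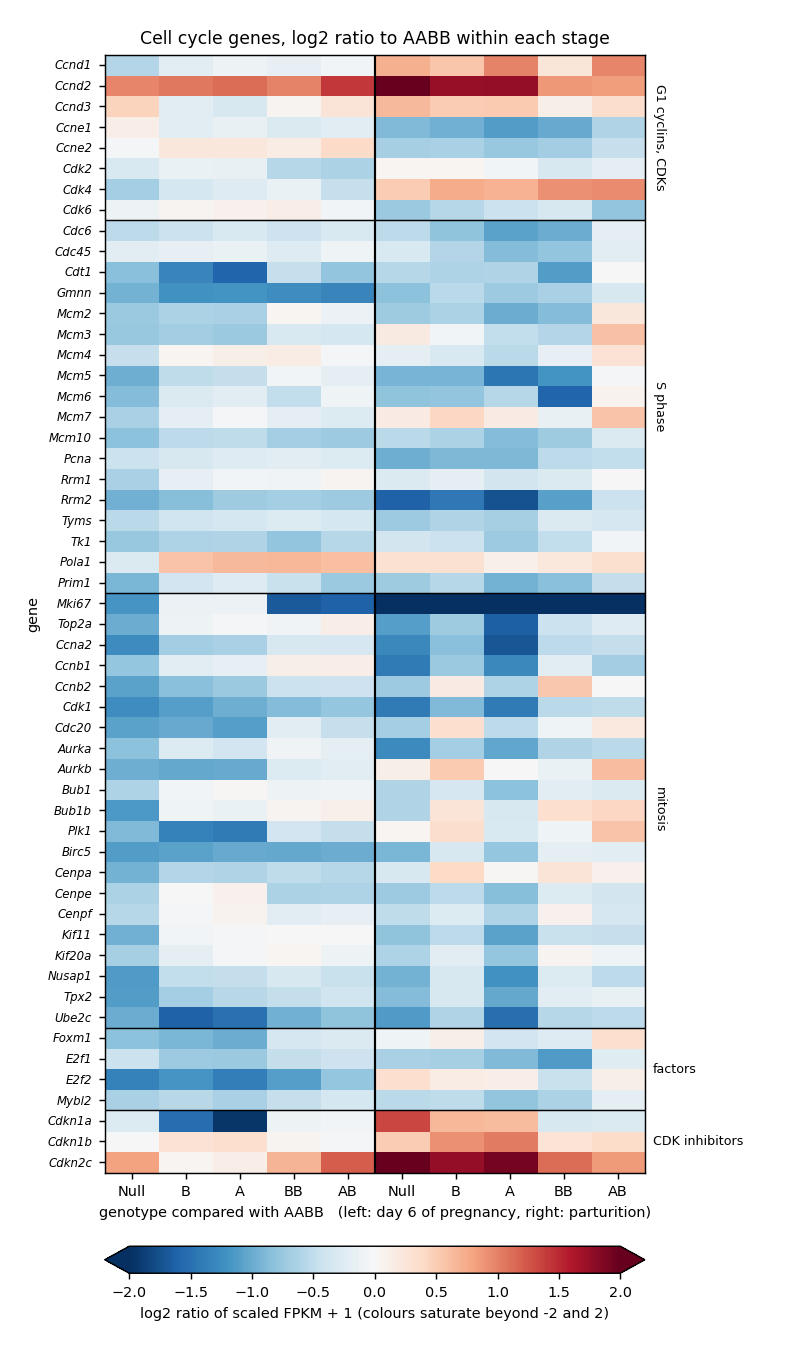
Log2 ratio to AABB of scaled FPKM + 1 for each of the 54 genes (rows, ordered by role) in 5 genotypes at day 6 of pregnancy (left 5 columns) and at parturition (right 5 columns), blue for lower and red for higher, with colours saturated beyond -2 and 2. Null at day 6 is blue through both S phase and mitosis, Mki67 is saturated at parturition in all 5 genotypes, and Ccnd2 and Cdkn2c are red there; the paler day 6 colours of B, A, BB and AB change sign with luminal scaling for many genes.

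Mki67, which encodes the Ki-67 protein that coats mitotic chromosomes and is the usual marker of dividing cells, had another order of genotypes than Top2a or Ccna2. At day 6 it read 3.16, 7.74, 7.74, 1.95, 2.08 and 8.46 scaled FPKM in Null, B, A, BB, AB and AABB. BB and AB, with 2 alleles, were thus below Null in the main scaling, whereas Top2a in BB (11.7) and AB (13.6) was close to AABB (12.3). The log2 ratios of Mki67 to AABB were -1.62 in AB and -1.19 in Null. Luminal scaling moves the median of all genes up by 0.92 in AB and by 0.26 in Null, so the order of these 2 columns may turn with it. Mki67 was 4.34-fold lower in BB and 4.06-fold lower in AB than in AABB by level, while the median log2 ratio of the other 20 mitosis genes was -0.30 and -0.37 there. Cenpe, a kinesin of the kinetochore, had a similar order at a low level, with 0.611, 1.502, 1.63, 0.603, 0.624 and 1.49. Cenpe and Mki67 are among the longest members, at 7910 and 10061 bases of transcript, and Cenpf, at 11130 bases, read 0.698, 1.45, 1.64, 1.14, 1.24 and 1.51. The ratios of BB and AB had rhos with length of 0.15 and 0.26 across members and of 0.40 and 0.38 across all genes. With the trends with length and GC content removed, the log2 ratio of Mki67 was -2.05 in BB and -2.01 in AB, and that of Cenpe was -1.06 and -1.07.

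At parturition Mki67 read 1.86, 2.54, 1.21, 5.85, 4.82 and 26.5 scaled FPKM, so AABB stood far above the other 5 columns. By level it was 14.3-fold lower in Null, 10.4-fold in B, 21.9-fold in A, 4.52-fold in BB and 5.49-fold in AB. Its log2 ratios of -3.27, -2.95, -3.63, -2.003 and -2.24 compare with lowest values of -1.41, -0.89, -1.70, -0.61 and -0.69 among the other 20 mitosis genes. Among 62 further genes of replication and mitosis that are not members, chosen after their values were seen, Spc25, a subunit of the kinetochore's Ndc80 complex, read 1.75, 2.37, 1.79, 3.94, 3.86 and 23.2. Fen1, the nuclease that trims Okazaki fragments, read 4.83, 6.57, 6.45, 15.1, 16.0 and 30.4. Spc25 thus had the same single high column as Mki67, whereas Fen1 climbed in steps.

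**Figure D3:**
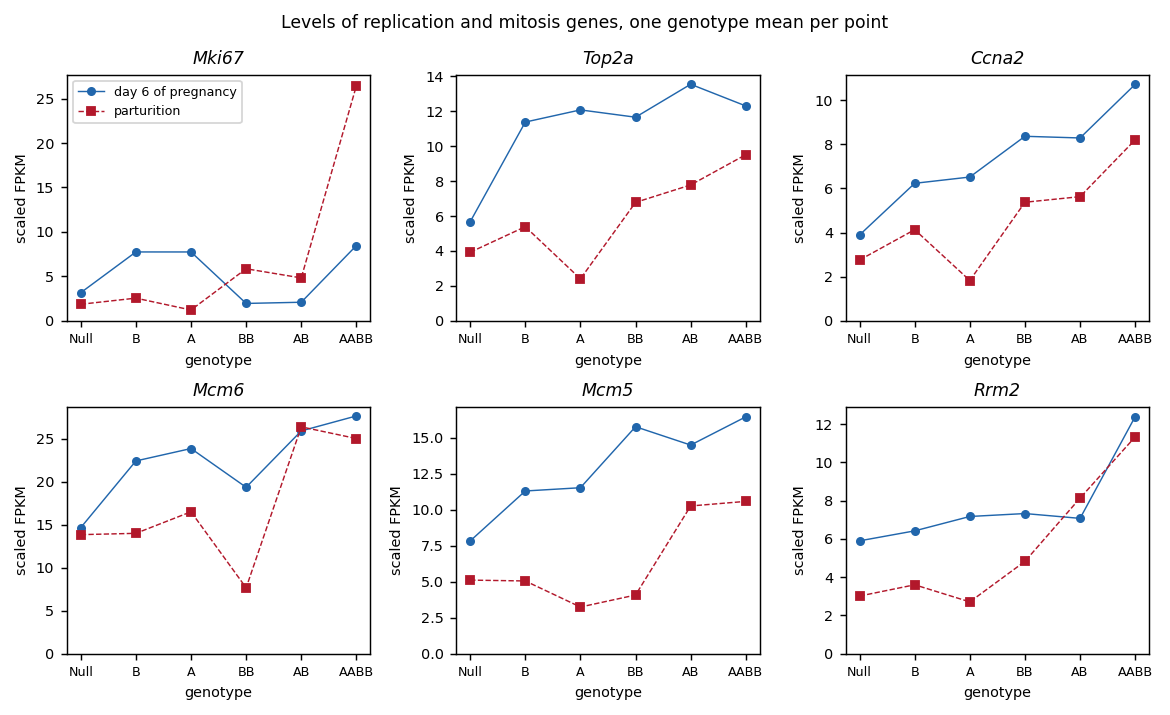
Scaled FPKM (y axis, from 0) of Mki67, Top2a, Ccna2, Mcm6, Mcm5 and Rrm2 in the 6 genotypes (x axis) at day 6 of pregnancy (blue circles) and at parturition (red squares); each point is 1 genotype mean without an error, and lines only join the points. Mki67 at parturition reaches 26.5 in AABB and at most 5.85 elsewhere, and Mcm6 and Mcm5 at parturition drop in BB to 7.65 and 4.07 while AB stays near AABB, although with luminal scaling AB is below AABB for both genes (-0.64 and -0.72).

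At parturition, when the tissue of AABB mice was secreting milk, mitosis genes were again lower in Null and A glands. In the main scaling B, BB and AB lay closer to AABB. The median log2 ratios for mitosis were -0.80 in Null, -0.32 in B, -0.86 in A, -0.21 in BB and -0.28 in AB, that of BB being 0.03 without scaling. With luminal scaling the mitosis median of B fell by 1.5-fold or more, below the -0.80 that Null had in the main scaling. Over all genes tested the medians were 0.10, 0.11, 0.10, 0.05 and 0.04. For S phase they were -0.55 in Null, -0.60 in B, -0.73 in A, -0.69 in BB and -0.05 in AB, that of AB being 0.16 without scaling and -0.69 with luminal scaling. AB was therefore the genotype nearest to AABB for replication genes in the main scaling, and BB was the nearest for mitosis genes.

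Members at least 2-fold lower numbered 8 in Null (10.7% of all genes), 2 in B (10.1%), 14 in A (10% of all genes), 7 in BB (5.37%) and 1 in AB (5.45%). In A, 10 of the 14 were mitosis genes and 3 were S phase genes, and the other was Ccne1. Members at least 2-fold higher numbered 3 in Null (19.1% of all genes), 2 in B (18.2%), 3 in A (17.3%), 1 in BB (8.07%) and 0 in AB (10.2%). The share of lower members was above that of all genes in Null, A and BB and below it in B and AB. Luminal scaling gave 14, 26, 36, 23 and 13 lower members in Null, B, A, BB and AB, beside 12.8%, 31.3%, 29.0%, 21.9% and 25.9% of all genes, which puts B above the share of all genes. No scaling gave 4, 1, 7, 2 and 1, beside 5.99%, 4.88%, 4.88%, 3.06% and 3.35%. The share of higher members was below that of all genes in all 5 genotypes. Milk protein genes took 53.4% of all FPKM in AABB, 36.5% in BB, 35.3% in AB, and 0.405%, 1.23% and 3.69% in Null, B and A.

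Rrm2, the small subunit of the reductase that supplies deoxynucleotides, read 3.01, 3.59, 2.70, 4.82, 8.13 and 11.3 scaled FPKM in Null, B, A, BB, AB and AABB at parturition. It was, after Mki67, the lowest member in Null (-1.62), B (-1.42) and A (-1.74), and it had 1 low group in Null, B and A with BB between them and AB. Pcna read 48.9, 51.5, 51.3, 67.3, 68.6 and 96.8 and fell into 3 levels, with Null, B and A together, then BB and AB, then AABB. Top2a read 3.92, 5.39, 2.40, 6.78, 7.78 and 9.52, with A the lowest of the columns. By allele number, 20 members were higher at each step, where 13.6% of all genes did, and 14 of these were mitosis genes. Among the 50 members past the FPKM minimum 17 were, of which 11 were mitosis genes. Without scaling 15 members were (6.73% of all genes), but with luminal scaling 4 members were (3.67% of all genes). Ccnd2, Ccnd3 and Cdkn2c, 3 members, were lower at each step, where 18.1% of all genes were, and with luminal scaling Ccnd2 and Cdkn2c were. AABB was the highest column for 28 members (25 of the 50 past the FPKM minimum), where it was for 28.2% of all genes. It was so for 21 members and 13.1% of all genes without scaling, and with luminal scaling for 41 and 46.5%.

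In 2 pairs of genotypes the allele number is equal but the isoforms differ. By genotype, A keeps 1 Stat5a allele and B 1 Stat5b allele, while AB keeps 1 allele of each gene and BB keeps 2 Stat5b alleles. The replication and mitosis genes separated differently in the 2 pairs at parturition. A compared with B had negative ratios for all 21 mitosis genes, with a median of -0.56 and a range of -0.91 to -0.33, and all 21 remained negative without scaling and with luminal scaling. For S phase 16 of 18 were negative with a median of -0.25. Ube2c read 6.83 in B and 3.17 in A, Cdc20, the activator of the anaphase-promoting complex, read 5.37 and 2.52, and Ccna2 read 4.13 and 1.82. No member reached 2-fold on the scale of FPKM + 1 in either direction, where 0.345% of all genes were lower and 0.36% higher, and with 0.1 in place of 1 as the added constant 9 members were at least 2-fold lower in A. At day 6 the same pair was nearly level, with medians of 0.06 for both phases, 0 members of 54 past 2-fold, and 0.247% and 0.135% of all genes lower and higher. With 3 listed samples for B and 2 for A at parturition and no value per sample, the difference could not be tested, and the Stat5a level of the column labelled B goes against its label.

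AB compared with BB had higher values for nearly all replication genes, while mitosis genes lay on both sides. Of 18 S phase genes 17 were higher in AB (16 without scaling and with luminal scaling), with a median of 0.51, while the mitosis genes divided into 11 below and 10 above 0, with a median of -0.01. Single mitosis genes differed as much as many S phase genes, among them Aurkb, a kinase of chromosome segregation, at 1.19 in BB and 2.70 in AB, and the mitotic cyclin gene Ccnb2 at 5.91 and 3.73. The 6 genes of the MCM helicase, Mcm2 to Mcm7, led this difference, with a median of 1.12 and a range of 0.45 to 1.66, and all 6 were higher in AB in every alternative processing tried. Mcm6 read 7.65 in BB and 26.4 in AB, beside 25.0 in AABB and 13.8 to 16.5 in Null, B and A, so BB was the lowest and AB alone among the 5 was near AABB, from which it differs by -0.64 with luminal scaling. Mcm5 read 4.07 in BB and 10.3 in AB, beside 10.6 in AABB and 3.24 to 5.11 in Null, B and A, the same grouping of AB with AABB, with -0.72 for AB under luminal scaling. Cdt1 read 2.26 in BB and 6.15 in AB, beside 6.09 in AABB. Luminal scaling moves the median ratio of AB to AABB over all genes by -0.63, so Cdt1 in AB may then lie below AABB.

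Of the 54 members, 5 were at least 2-fold higher in AB than in BB, namely Mcm2, Mcm3, Mcm5, Mcm6 and Cdt1, and 0 were lower, where 1.06% of all genes were higher and 0.72% lower. The 4 transcription factors were all higher too, with log2 ratios from 0.44 for Mybl2 to 0.89 for E2f1. Pcna, at 67.3 in BB and 68.6 in AB, and Tyms, the thymidylate synthase, at 3.48 and 3.37, did not share this difference. At day 6, AB minus BB had medians of -0.07 for S phase and 0.02 for mitosis, and 0 members were past 2-fold in either direction, where 0.988% of all genes were lower and 1.73% higher. With luminal scaling those day 6 medians were 0.40 and 0.43. At parturition the ratios of AB to BB also followed GC content, with a rho of 0.47 across members and 0.52 across all genes, and with the trends removed the MCM median was 0.89 and 2 members were at least 2-fold higher.

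**Figure D4:**
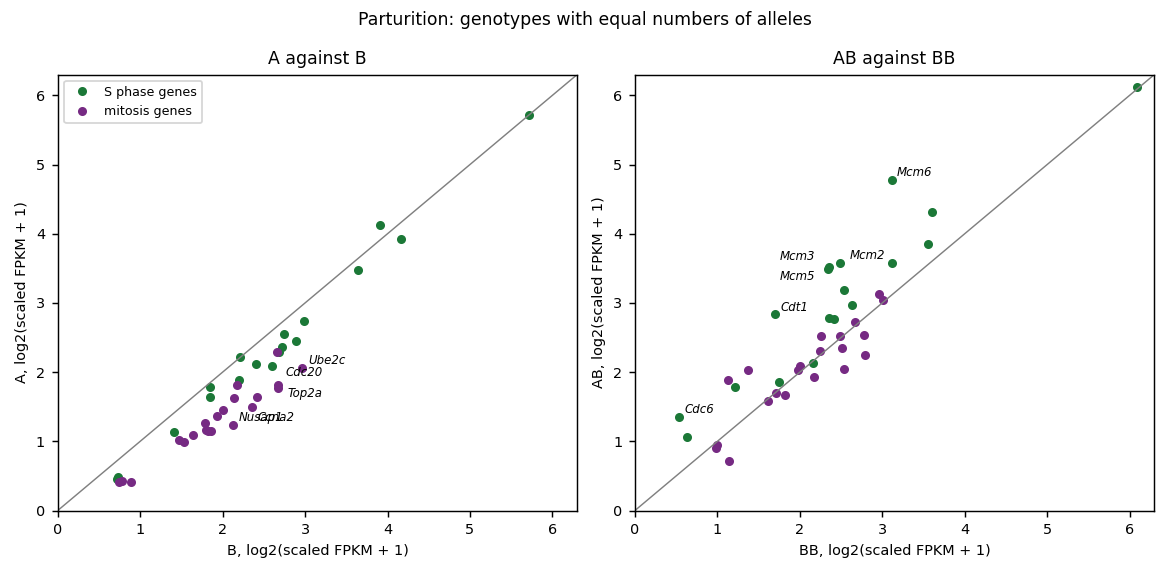
Log2(scaled FPKM + 1) at parturition of S phase genes (green) and mitosis genes (purple) in the columns labelled A against B (left) and AB against BB (right); each point is 1 gene, the diagonal marks equal values, and genes that differ by 0.8 or more are labelled. All 21 mitosis genes lie below the diagonal on the left, and on the right 17 of 18 S phase genes lie above it, led by Mcm6 at 1.66, while mitosis genes lie on both sides.

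The G1 genes act at entry into the cycle, but their RNA levels in bulk tissue do not measure that entry. Ccnd1, cyclin D1, which mammary alveoli need in pregnancy, read 48.4, 62.7, 68.1, 65.3, 70.4 and 73.3 scaled FPKM at day 6 in Null, B, A, BB, AB and AABB, so Null was the lowest, and with luminal scaling the other 4 mutants are above AABB. At parturition it read 76.1, 68.0, 92.5, 54.9, 92.4 and 46.2, and AABB was the lowest, although B (-0.23) and BB (-0.44) are below AABB with luminal scaling. Both genotypes with a single Stat5a allele, A and AB, were the highest, at a log2 ratio to AABB of 0.99 and 0.98. Cdk4, the partner kinase, read 87.7, 111, 118, 128, 102 and 141 at day 6 and 64.6, 76.1, 73.6, 85.7, 88.4 and 45.2 at parturition, so its lowest column also moved from Null to AABB. With luminal scaling its ratios in B, A, BB and AB are positive at day 6, and those in B and A at parturition are -0.04 and -0.03.

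Ccnd2, cyclin D2, read 49.3, 52.0, 54.3, 49.9, 67.0 and 24.5 at day 6 and 60.1, 28.8, 29.2, 15.3, 15.0 and 7.95 at parturition. At day 6 the 5 mutant columns were close together and AABB stood alone below them. At parturition the level fell into 4 steps that matched the number of alleles, and Null was 7.56-fold above AABB. Ccnd3, cyclin D3, read 57.0 in Null and 33.0 to 50.3 elsewhere at day 6, and 39.8, 36.0, 36.4, 27.2, 32.3 and 25.1 at parturition. Its parturition ratios of 0.50 in B, 0.52 in A, 0.11 in BB and 0.35 in AB were negative with luminal scaling. Cdk6 read 1.26 to 1.65 at day 6, and at parturition 1.15, 1.44, 1.67, 1.89, 1.09 and 2.61, highest in AABB. Cdk2, the kinase that starts replication with cyclin E, read 9.48 to 15.2 at day 6 and 8.47 to 11.2 at parturition, a narrow range at both stages. Its partner Ccne1 read 2.85 to 4.19 at day 6 and 1.45, 1.299, 1.08, 1.24, 1.97 and 3.49 at parturition, where AABB was the highest. Ccne2 stayed below 1.5 FPKM in all columns and was highest in AABB at parturition, at 1.44.

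Among the inhibitors, Cdkn2c, which encodes the CDK4 and CDK6 inhibitor p18, had the widest range. It read 98.1, 57.3, 61.0, 89.4, 130 and 55.7 at day 6 and 90.4, 57.4, 64.0, 36.3, 30.2 and 16.2 at parturition. The parturition values again stepped down with allele number, and Null was 5.58-fold above AABB, whereas at day 6 Null, BB and AB were high. Cdkn1a, which encodes p21, the inhibitor induced by p53, read 19.7, 7.69, 5.52, 22.4, 23.1 and 24.0 at day 6, and B and A alone were low, at log2 ratios of -1.52 and -1.94. At parturition it read 18.5, 11.2, 10.9, 5.14, 5.32 and 6.71, highest in Null at a log2 ratio of 1.34, so its order had turned for B and A, whose ratios of 0.67 and 0.63 were -0.04 and -0.03 with luminal scaling. Cdkn1b, which encodes p27, read 17.1 to 22.3 at day 6 and 28.5, 38.1, 41.8, 24.2, 25.7 and 19.8 at parturition, highest in A, with BB and AB below AABB under luminal scaling. The members at least 2-fold higher at parturition were Ccnd2, Cdkn2c and Cdkn1a in Null, Ccnd2 and Cdkn2c in B, Ccnd2, Cdkn2c and Cdkn1b in A, and Cdkn2c in BB.

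The same columns differ in the fat of the gland, and at parturition adipocyte markers stood in the same order as Ccnd2 and Cdkn2c. The sum of 8 adipocyte markers, all above 0.1 FPKM in every column, was 21254, 16040, 17714, 6985, 5987 and 3742 FPKM in Null, B, A, BB, AB and AABB at parturition. At day 6 it was 37549, 17660, 18713, 15044, 21033 and 17469, highest in Null and AB and lowest in BB, an order shared only in part. Cdkn2c was likewise highest in Null and AB and near AABB in B and A, but it was above AABB in BB. Ccnd2 was above AABB in every mutant column and highest in AB. Skeletal muscle markers summed to 3027, 1853 and 1902 FPKM in Null, B and A at parturition and to 4.59 to 207 in the others, and to 5801 in AB at day 6 beside 26.9 to 437 elsewhere. The part of fat or muscle in the ratios of the G1 genes and inhibitors was not tested.

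**Figure D5:**
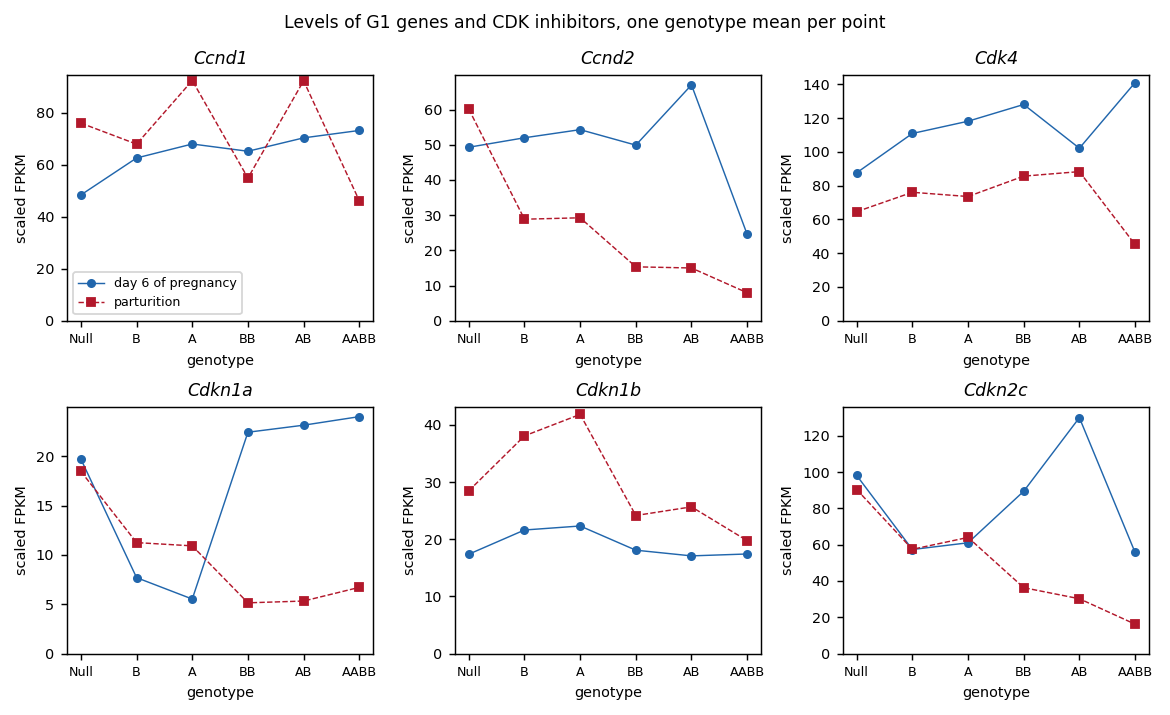
Scaled FPKM (y axis, from 0) of Ccnd1, Ccnd2, Cdk4, Cdkn1a, Cdkn1b and Cdkn2c in the 6 genotypes (x axis) at day 6 of pregnancy (blue circles) and at parturition (red squares); each point is 1 genotype mean without an error, and lines only join the points. Ccnd2 and Cdkn2c step down with the number of alleles at parturition, from 60.1 to 7.95 and from 90.4 to 16.2, and Cdkn1a at day 6 is low only in B and A.

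The 4 transcription factors were below AABB in all 5 mutant genotypes at day 6, although with luminal scaling all 4 are above it in AB, E2f1 and Foxm1 in BB and E2f1 in A, and they were mixed at parturition. E2f2 read 0.954, 1.19, 0.911, 1.33, 1.91 and 3.99 scaled FPKM at day 6, and its log2 ratios were -1.35, -1.19, -1.38, -1.10 and -0.78, that of AB being 0.02 with luminal scaling. At parturition it read 0.419 to 1.45 and AABB, at 0.938, was not the highest. Foxm1 read 2.06, 1.87, 1.74, 3.28, 3.42 and 4.42 at day 6, with B and A below Null, an order that luminal scaling turns (-0.29 and -0.25 against -0.53). E2f1 read 5.00 to 6.47 in the 5 mutant columns and 8.99 in AABB at day 6, and 3.36, 3.28, 2.67, 2.09, 4.73 and 5.80 at parturition, where BB was the lowest as for Mcm6. Mybl2, which encodes B-MYB, read 1.21 to 1.74 in the mutants and 2.48 in AABB at day 6, and 0.486 to 1.24 and 1.56 at parturition.

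Genes of the same pathways that are not members were taken from lists of their own. Of 26 further S phase genes, 26 were below AABB in Null at day 6, with a median log2 ratio of -0.63, and 3 were at least 2-fold lower, among them Uhrf1, which recruits the maintenance DNA methyltransferase, at 5.78 against 14.9 scaled FPKM. Of 36 further mitosis genes, 35 were below AABB, with a median of -0.74, and 6 were at least 2-fold lower. Of all genes tested, 2.09% were at least 2-fold lower in Null at day 6. The values of these lists are those of the main scaling. For 17 further cell cycle brakes and E2F family genes, such as Rb1 and Cdkn1c, the median was 0.04, with 7 below and 10 above 0. Members of that mixed list lay on both sides, from E2f8, a repressor of the E2F family, at -1.003 to Rb1 at 0.58.

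At parturition the same lists were read between genotypes of equal allele number. In A minus B, 35 of 36 further mitosis genes were negative, with a median of -0.39, and 23 of 26 further S phase genes, with a median of -0.15. In AB minus BB, 21 of 26 further S phase genes were positive, with a median of 0.39, and the 36 further mitosis genes had a median of -0.01. Uhrf1 read 1.43 in BB and 6.39 in AB, beside 6.38 in AABB, so BB was again low and AB near AABB in the main scaling. Luminal scaling moves the median ratio of AB to AABB over all genes by -0.63, so Uhrf1 in AB may then lie below AABB. Among the brakes, Cdkn1c, which encodes the inhibitor p57, read 20.9, 14.8, 12.5, 18.7, 15.7 and 3.51 scaled FPKM at parturition, so AABB was alone at the low end. Btg1, an antiproliferative factor, read 33.2, 39.6, 54.7, 22.0, 29.1 and 10.3 and was also lowest in AABB.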

How the data were processed

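Mammary tissue RNA was extracted with TRIzol, selected for poly(A) and sequenced on a HiSeq 2000, per the labels' protocols. The submitters' processing notes name CASAVA, TopHat and build mm9 without versions. The program and annotation behind the FPKM values are not given in the sources used here. The authors deposited FPKM per gene symbol as 2 tables, 1 per stage, with 1 mean per genotype. Depth is unknown and no value per sample was at hand, so no SD, interval, test or p-value was computed.

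Each table's columns were scaled by median ratios to the gene-wise geometric mean, using genes that reached 1 FPKM everywhere (11733 at day 6, 10864 at parturition). The tables were kept apart. Genes that reached 1 FPKM in 2 or more columns formed the background, and ratios used log2(scaled FPKM + 1). The scaling was tested on simulated data in which equal numbers of genes rose and fell, in Null alone. It was not tested on unequal shifts, and at parturition 19.1% of all genes were at least 2-fold higher in Null and 10.7% lower. Alternatives were an added constant of 0.1, members past the FPKM minimum only, no scaling, scaling to 8 luminal markers and, chosen after seeing the data, removal of trends with transcript length and GC content (lowess, fraction 0.3).

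The members and lists were chosen with earlier results of these data known. Named genes were all G1 genes, factors and inhibitors, Mki67, Top2a, the 6 most abundant S phase and mitosis members, and the 2 lowest and 2 highest members of each comparison with AABB. Cdk1, Plk1, Mcm2, Mcm5, Prim1, Tyms, Cdc45, Cenpe, Cenpf, Aurkb, Ccnb2 and all genes that are not members were named after their values were seen. Values were computed with Python 3.11.15, numpy 2.4.6, pandas 2.3.3, scipy 1.17.1 and statsmodels 0.14.6.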

Additional observations from a re-analysis of the deposited data

How the results depend on the processing

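No paired analysis was possible because the deposited columns are genotype means without replicate values, and leaving out each replicate could not be run for the same reason. Each alternative was set beside 28 medians and 28 counts of members past 2-fold, and the scalings beside the counts by allele step. None of 57 values of named genes past 2-fold changed sign under an added constant of 0.1, no scaling, luminal scaling or removal of trends. These values were picked for being past 2-fold, so a change of sign was unlikely beforehand and its absence shows little. The size of the 57 values did change. Luminal scaling moved 38 values by about 1.5-fold or more and left 25 the same, in a tally that also holds 6 counts by allele step. The constant of 0.1 moved 3 of the 57. The medians of S phase and mitosis kept their sign in 28 of 28 cases with an added constant of 0.1, in 27 with only members past the FPKM minimum, in 27 with length and GC trends removed, in 25 without scaling and in 19 with luminal scaling. Luminal scaling moved medians by 1.5-fold or more for S phase and mitosis in B (0.27 and 0.21), A (0.45 and 0.35) and AB (0.73 and 0.54) at day 6, and in B (-1.24 and -0.93) and for S phase in AB (-0.69) at parturition. An added constant of 0.1 moved the mitosis median of A at parturition to -1.46.
In counts of lower and higher members against AABB, those that moved by over 1.5 times with luminal scaling were, at day 6, 1 and 2 in Null, 0 and 3 in B, 1 and 5 in A, 1 and 3 in BB and 0 and 10 in AB, and at parturition 14 lower in Null, 26 in B, 36 in A, 23 in BB and 13 in AB, with 0 higher in BB. With an added constant of 0.1 they were 25 lower and 1 higher in Null, 7 lower and 1 higher in BB and 6 lower in AB at day 6, and 19, 8, 26, 12 and 2 lower in Null, B, A, BB and AB at parturition. Without scaling they were 19 lower in Null at day 6, and at parturition 4 lower and 5 higher in Null, 1 and 6 in B, 7 and 6 in A, 2 and 3 in BB, and 4 higher in AB. With trends removed they were 6 lower and 0 higher in B and 0 higher in A at day 6, and 4 lower in B at parturition. For A minus B at parturition an added constant of 0.1 gave 9 lower. AB minus BB gave 1 higher at day 6 with luminal scaling, and at parturition 9 higher with the constant of 0.1 and 2 with trends removed. Members higher at each allele step at day 6 numbered 14 without scaling and 2 with luminal scaling, and at parturition 4 with luminal scaling, and those highest in AABB at day 6 numbered 2 with luminal scaling. The causes were not tested.
Depth is unknown, so counting error at low FPKM could not be set against any of these shifts.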

Other observations

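AABB glands were set side by side over the stages, with the caution that the 2 tables were normalized separately. Scaled FPKM was higher at day 6 of pregnancy than at parturition for 16 of 18 S phase and 20 of 21 mitosis members. So it was for 4 of 4 transcription factors, 6 of 8 G1 genes and 2 of 3 inhibitors. Ube2c, for example, read 25.0 and 10.9, and Gmnn read 19.7 and 8.76. The share of all genes was not computed, and milk protein genes took 1.09% of FPKM in AABB at day 6 and 53.4% at parturition. The counts therefore cannot be set apart from a shift of all genes. The exception among the mitosis genes was Mki67, at 8.46 and 26.5. Pcna, at 89.4 and 96.8, and Cdc6, which loads the MCM helicase together with Cdt1, at 1.86 and 1.89, were the S phase exceptions. Among the inhibitors Cdkn1b read 17.4 and 19.8, and Cdkn2c read 55.7 and 16.2.

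The fibroblast markers, 6 matrix and fibroblast genes, summed to 8539 and 7806 FPKM in BB and AB at day 6, to 4290 and 4041 in B and A, and to 1788 and 2041 in Null and AABB. All 6 were above AABB in BB and AB, but they went both ways in the other mutants. Their log2 ratios to AABB ran from -0.89 (Col1a1) to 1.68 (Dcn) in Null. The same 2 genes bounded the range in B, -0.88 to 3.06, and in A, -1.02 to 3.08. At parturition the sum was 1458 to 2223 in the 5 mutant columns and 376 in AABB. Pttg1, the securin that guards sister chromatids, read 2.72 in BB and 11.7 in AB at day 6, beside 3.17 to 4.23 in Null, B and A and 6.97 in AABB; it was chosen after its values were seen.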
